A study of Homo sapiens with 16 samples.

Results

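The 4 early growth response genes EGR1, EGR2, EGR3 and EGR4 and the 2 genes of their corepressors, NAB1 and NAB2, were followed through treatment of K562 cells with a phorbol ester. They were taken by name, as 6 of the 35052 genes in the data. K562 is an established human leukaemia cell line, grown here with the genotype labelled WT. Every group received 25 nM PMA, an activator of protein kinase C, for 0 h, for 0.5, 1.5 or 3 h, or for 6, 24, 48 or 72 h, with 2 libraries at each time and the medium replaced after 24 and 48 h. The libraries labelled 0 h are the only control, and the later groups have no untreated culture of the same age. Total RNA was sequenced after removal of ribosomal RNA. The labels do not say whether the 2 libraries of a time point came from separate cultures, so p-values measure the spread between these libraries, which may be technical. In bulk RNA, fewer cells with a transcript and less of it per cell cannot be told apart.

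EGR proteins are zinc finger transcription factors that bind GC-rich sites, and EGR1 is a classical immediate-early gene, transcribed within minutes of a stimulus without new protein synthesis. Phorbol esters act through protein kinase C on the RAF, MEK and ERK kinases, which activate ELK factors bound with SRF at CArG boxes in immediate-early promoters. NAB1 and NAB2 bind EGR1, EGR2 and EGR3, but not EGR4, and repress their activity, in part through the chromatin remodeller CHD4. NAB2 is itself known as a gene induced by EGR factors, which makes the pair a textbook negative feedback.

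Promoter sequence is shown for the members in which these known elements could be searched. The windows of 300 bases around annotated starts came from RefSeq (GRCh38.p14) and matched 5 of the 6 genes. In the stretches below, written 5′ to 3′ on the gene's own strand, capitals mark CArG boxes and the letters TGACG or their reverse complement, the shortened cAMP response element.
EGR1 chr5:138465329-138465448, plus strand: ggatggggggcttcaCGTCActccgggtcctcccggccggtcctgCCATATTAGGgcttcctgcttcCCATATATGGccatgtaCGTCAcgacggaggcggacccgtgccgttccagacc
EGR2 chr10:62816397-62816516, minus strand: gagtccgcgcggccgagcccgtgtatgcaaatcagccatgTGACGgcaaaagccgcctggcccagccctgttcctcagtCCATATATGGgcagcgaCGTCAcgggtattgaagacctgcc
EGR4 chr2:73293709-73293798, minus strand: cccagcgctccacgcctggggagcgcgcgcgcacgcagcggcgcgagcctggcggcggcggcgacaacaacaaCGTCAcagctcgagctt

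The EGR1 window held 2 CArG boxes, at 105 to 96 and 83 to 74 bases before the start. Of the 3 annotated EGR2 starts, that at position 62816366 of chromosome 10 had 1 CArG box, 71 to 62 bases before it, and the windows of the other starts had 0. The EGR4 window had 0 CArG boxes. On either strand, CArG boxes occurred in 1.29% of the 35116 promoter windows in the table. The letters TGACG occurred 2 times in the EGR1 and EGR4 windows and 2 times at the same EGR2 start, against 24.6% of all windows with at least 1 match. TGACG also occurred 1 time in each NAB1 window, 2 of which share that match, and 0 times in the NAB2 window. The full element TGACGTCA, present in 1.85% of windows, had 0 matches in the windows of the 5 genes searched. The ETS core GGAA, found in 95.5% of windows, separates few promoters. A match is a description of the letters and not a measured site.

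The NAB promoters were searched for the EGR consensus in the forms GCGTGGGCG and GCGGGGGCG, on both strands. Capitals in the next stretches mark these matches or their reverse complement.
NAB1 chr2:190648844-190648873, plus strand: cccagcggcCGCCCCCGCCCCCGCccggcg
NAB1 chr2:190648898-190648927, plus strand: actcggccgcGCGTGGGCGggagccggagc
NAB2 chr12:57089041-57089070, plus strand: ctgtgcgtcctGCGGGGGCGgaggcgcgga
NAB1 held GCGTGGGCG 1 time, which occurs in 0.795% of all windows, and GCGGGGGCG 2 times as overlapping matches on the minus strand. These matches lie where the windows of 2 NAB1 starts overlap. The window of the other NAB1 start, at position 190659158, held 0 matches to either form. NAB2 held GCGGGGGCG 1 time, a match present in 5.07% of all windows. The second NAB1 stretch lies in the annotated 5′ exon of 2 NAB1 transcripts, and the NAB2 stretch overlaps that of NAB2 transcripts. The EGR1, EGR2 and EGR4 windows held 0 matches to either form.

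Library totals were 27285773 to 54056289 estimated reads. Levels are given as CPM, reads scaled to a common library size with TMM factors, and per length as TPM. The library 0 h replicate 2 stood apart. Its difference from 0 h replicate 1 went with the GC content of genes (Pearson r = 0.738 across 9975 genes), against -0.38 to 0.57 at the other times. Its fragment length, read from the gap between length and effective length, was 199 nt, against 229 to 248 nt in the other replicate 2 libraries. Erythroid markers were present throughout, 8 of 8 tested, with summed levels of 1953 to 2221 CPM at 0 h and 1446 to 1932 CPM at 72 h. The megakaryocyte list, with 5 of 7 markers tested, summed to 67.6 to 102 CPM at 0 h and 5441 to 6191 CPM at 72 h, while PF4 and GP9 reached at most 1 read. Most of the 72 h sum was THBS1 (means of 3.53 CPM at 0 h and 4593 CPM at 72 h) and ITGB3 (1.52 and 1092 CPM). CD9 went from 0.346 to 40.3 CPM, ITGA2B from 57.7 to 61.9 CPM and GP1BB from 21.8 to 29.2 CPM. Fibroblast markers summed to 8.53 to 10.7 CPM at 0 h and 232 to 251 CPM at 72 h (3 of 4 tested; COL3A1 had at most 5 reads), monocyte markers to 132 to 154 and 219 to 246 CPM (5 of 5; CD14 had at most 18 reads), and lymphocyte markers to 8.72 to 11.1 and 18.5 to 18.8 CPM (3 of 5; MS4A1 had at most 1 read). The part of these changes in the results at 24 to 72 h was not tested.

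All 6 genes passed the low-count filter among 17559 genes tested, but EGR2, EGR3 and EGR4 did so only through the treated libraries. A gene was called at a Benjamini-Hochberg adjusted p under 0.05 in edgeR's quasi-likelihood test over all genes. At 0.5 h, 4 of the 6 genes were called against 0 h, all EGR genes and all higher, where 0.171% of all genes were called and 0.165% were called higher. Because 3 of these 4 passed the filter only through libraries in which they were high, the count is a description. With at least 10 counts required in every library, 1 of the 3 members left, EGR1, was called at 0.5 h. At 1.5 h all 6 were higher, beside 17.1% of genes called in either direction and 9.05% called higher. All 6 were also higher at 3 h, where 42% of genes were called and 21.5% called higher, and at 6 h, with 57.2% and 27.8%. The same held at 24 h, beside 58.3% called and 31.7% higher, at 48 h with 54.3% and 30.2%, and at 72 h with 58.6% and 31.7%. At the late times a call by itself therefore sets a gene little apart. These comparisons share the same 0 h libraries. EGR2, EGR3 and EGR4 entered each of them only through treated libraries, so the counts of 6 are descriptions too. With at least 10 counts required in every library, 3 of the 3 members left were called at each time from 1.5 to 72 h. With 2 libraries a group, 38.7 to 82.2% of all genes had libraries that did not overlap in a comparison, so an absence of overlap is common.

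**Figure D1:**
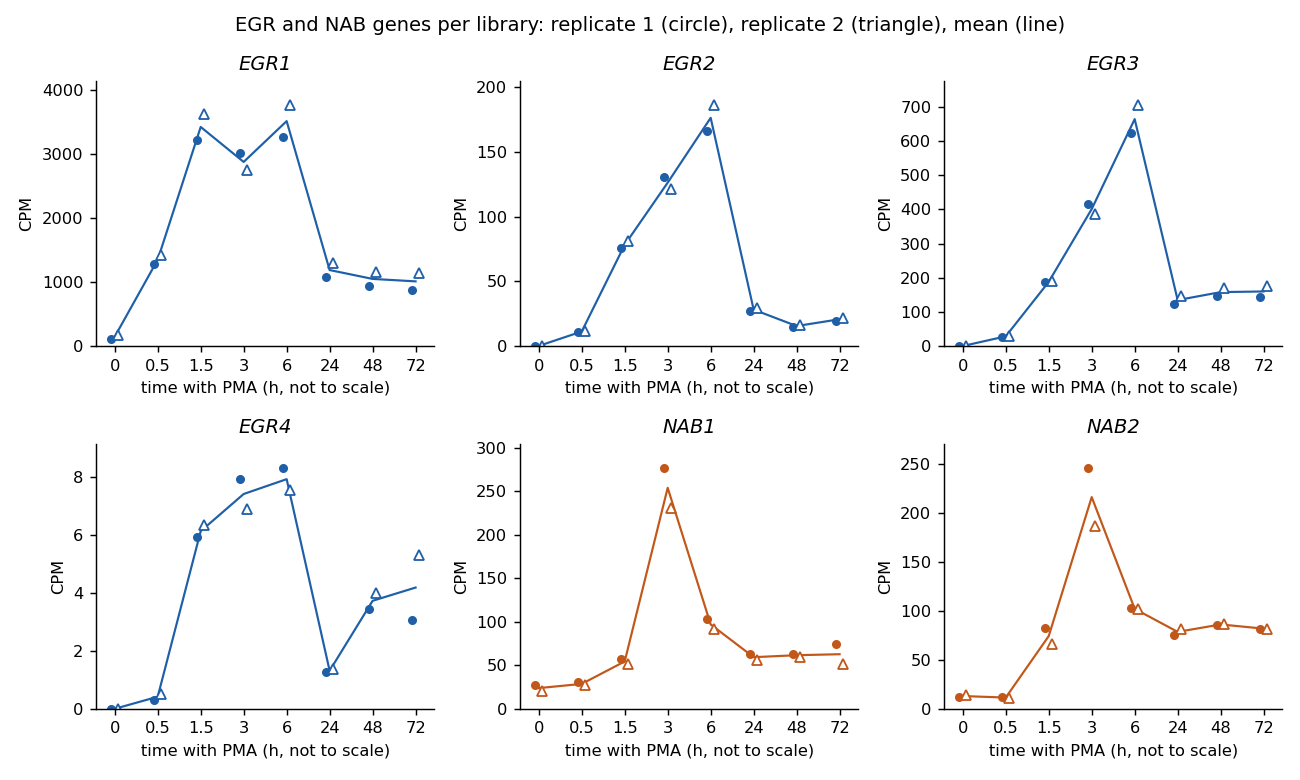
CPM of each gene in every library (vertical axes, linear from 0, different for each gene) against time with PMA in h (horizontal axes, not to scale), with circles for replicate 1, triangles for replicate 2 and a line through the means. EGR2 and EGR3 were highest at 6 h, while NAB1 and NAB2 peaked at 3 h.

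EGR1 (GRCh38 chromosome 5, 138465490 to 138469315, plus strand) was the only EGR gene with a sizeable level before treatment and was the most abundant member at every time. Its levels in the 2 libraries were 118 and 175 CPM at 0 h and 1278 and 1422 CPM at 0.5 h. They reached 3218 and 3632 CPM at 1.5 h, 3011 and 2746 CPM at 3 h, and 3266 and 3766 CPM at 6 h. The levels were then 1075 and 1301 CPM at 24 h, 946 and 1154 CPM at 48 h, and 875 and 1148 CPM at 72 h. Every treated library was above both 0 h libraries, and the 3 times from 1.5 to 6 h formed a plateau in which 1.5 h and 6 h overlapped.

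The EGR1 rise was 9.22-fold at 0.5 h (log2 change 3.20, SE 0.20, edgeR adjusted p = 1.78e-06) and 24.0-fold at 6 h (log2 change 4.59, SE 0.22, adjusted p = 5.88e-10). From 0.5 to 1.5 h it rose a further 2.54-fold (adjusted p = 5.59e-04). Neither 1.5 to 3 h (log2 change -0.25, adjusted p = 0.380) nor 3 to 6 h (0.29, adjusted p = 0.245) passed edgeR's threshold. It fell 2.96-fold from 6 to 24 h (adjusted p = 1.12e-05) and was 6.91-fold above 0 h at 72 h (log2 change 2.79, SE 0.20, adjusted p = 3.71e-08). In the order of levels, 0.5 h followed the plateau and overlapped 24 h, and 24, 48 and 72 h overlapped one another. Without 0 h replicate 2, which had the higher level of the 0 h pair, the log2 change at 0.5 h was 3.52, and without 0 h replicate 1 it was 2.95.

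EGR2 (chromosome 10, 62811996 to 62919900, minus strand), known from myelination and from T cells, started from almost no reads. It had 3 and 5 reads at 0 h, or 0.092 and 0.161 CPM, near the floor of 3 reads that a library can resolve. Its levels were 11.1 and 11.4 CPM at 0.5 h, 75.5 and 81.1 CPM at 1.5 h, 131 and 122 CPM at 3 h, and 167 and 186 CPM at 6 h. They were 27.0 and 29.3 CPM at 24 h, 14.7 and 16.3 CPM at 48 h, and 19.5 and 21.96 CPM at 72 h. The libraries of neighbouring times did not overlap anywhere in this course, and the level was highest at 6 h.

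Counted on summed reads, the EGR2 level at 0.5 h was 89.6 times that at 0 h (95% exact interval 45.2 to 208) and at 6 h 1411 times (716 to 3268). These intervals cover counting error only. With counts made from TPM the fitted log2 change of EGR2 was 5.61 at 0.5 h and 9.80 at 6 h, against 6.44 and 10.41 from the reads. EGR2 rose at each step to 6 h in edgeR's test: by log2 2.80 from 0.5 to 1.5 h, 0.69 from 1.5 to 3 h (adjusted p = 1.32e-04) and 0.48 from 3 to 6 h (adjusted p = 0.00123). It fell 6.26-fold from 6 to 24 h (adjusted p = 4.92e-10) and 1.82-fold more from 24 to 48 h (adjusted p = 9.36e-05). The difference from 48 to 72 h, log2 0.42, missed the threshold (adjusted p = 0.0746), and it passed in 5 alternative fits, with adjusted p = 0.0369 in DESeq2. EGR2 was the only member called between 24 and 48 h in the downward direction.

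EGR3 (chromosome 8, 22687659 to 22693302, minus strand), a close relative studied in muscle spindles and lymphocytes, gave the largest fitted fold of the members with reads at 0 h. It had 6 and 7 reads at 0 h, or 0.184 and 0.225 CPM. The libraries held 27.0 and 30.0 CPM at 0.5 h, 187 and 189 CPM at 1.5 h, 415 and 386 CPM at 3 h, and 623 and 705 CPM at 6 h. Later levels were 124 and 146 CPM at 24 h, 146 and 170 CPM at 48 h, and 145 and 175 CPM at 72 h. Levels climbed without overlap up to 6 h, and the 48 and 72 h libraries overlapped.

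On summed reads, EGR3 was 139 times its 0 h level at 0.5 h (95% exact interval 81.3 to 262) and 3269 times at 6 h (1912 to 6141). These intervals overlapped those of EGR2 at both times, so the order of the folds of EGR2 and EGR3 is not resolved there. By edgeR it rose by log2 2.72 from 0.5 to 1.5 h (adjusted p = 1.51e-08), 1.09 from 1.5 to 3 h (adjusted p = 1.35e-05) and 0.73 from 3 to 6 h (adjusted p = 2.31e-04). It fell 4.93-fold from 6 to 24 h (adjusted p = 6.89e-09), and neither later step passed. Among all 17559 genes, its fitted rise ranked 10 from the top at 0.5 h, 6 at 1.5 h and 7 at 6 h, ranks that lean on its few reads at 0 h. An antisense gene annotated across EGR3 is not analysed here.

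EGR4 (chromosome 2, 73290929 to 73293705, minus strand), the member not bound by NAB proteins, stayed the least abundant. It had 0 reads in both 0 h libraries, which allows at most 3 reads in each, and 12 and 18 reads at 0.5 h. Its levels were 0.317 and 0.516 CPM at 0.5 h, 5.94 and 6.33 CPM at 1.5 h, 7.92 and 6.92 CPM at 3 h, and 8.32 and 7.54 CPM at 6 h. They were 1.26 and 1.37 CPM at 24 h, 3.44 and 4.02 CPM at 48 h, and 3.07 and 5.31 CPM at 72 h. The libraries at 3 and 6 h overlapped, and every 24 h value lay below every value at 1.5 to 6 h and at 48 to 72 h.

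The mean EGR4 level was 4.42 times the floor of 3 reads per 0 h library at 0.5 h, 65.0 times at 1.5 h and 84.1 times at 6 h. These ratios do not cover the spread or counting error of the treated libraries. The call at 0.5 h (edgeR adjusted p = 0.0129) rests on few reads. It was lost when only the 2 time points were fitted (adjusted p = 0.375), without 0 h replicate 2 (0.118) and without 0.5 h replicate 2 (0.0773). EGR4 rose 14.7-fold from 0.5 to 1.5 h (adjusted p = 5.22e-06) and fell 6.00-fold from 6 to 24 h (adjusted p = 3.90e-06). It then rose 2.83-fold from 24 to 48 h (log2 change 1.50, SE 0.26, adjusted p = 0.00217), the only member called higher over that step.

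NAB1 (chromosome 2, 190646746 to 190692766, plus strand), a corepressor expressed in many tissues, was already present before treatment and moved later than the EGR genes. Its libraries held 27.2 and 20.4 CPM at 0 h, 30.3 and 26.8 CPM at 0.5 h, 57.4 and 51.4 CPM at 1.5 h, and 277 and 231 CPM at 3 h. Levels were 103 and 91.2 CPM at 6 h, 62.6 and 56.0 CPM at 24 h, 63.5 and 59.6 CPM at 48 h, and 74.3 and 51.1 CPM at 72 h. The 0 and 0.5 h libraries overlapped, the 3 h libraries stood above all others, and the 24, 48 and 72 h libraries overlapped one another.

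The NAB1 difference at 0.5 h was log2 0.26 (SE 0.18), which did not pass in edgeR (adjusted p = 0.382). NAB1 rose 2.29-fold at 1.5 h (log2 change 1.19, SE 0.17, adjusted p = 5.85e-04) and 10.7-fold at 3 h (log2 change 3.42, SE 0.19, adjusted p = 7.12e-09). The step from 1.5 to 3 h alone was 4.67-fold (adjusted p = 5.53e-07). From 3 to 6 h it fell 2.62-fold (adjusted p = 1.86e-05), and from 6 to 24 h 1.63-fold (adjusted p = 0.00299). It remained 2.64-fold above 0 h at 72 h (adjusted p = 1.10e-05). The step from 0.5 to 1.5 h (log2 0.93, adjusted p = 0.00478) lost its call without 1.5 h replicate 1 (0.0655) or without 0.5 h replicate 2 (0.0795). Antisense genes annotated across NAB1 are not analysed here.

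NAB2 (chromosome 12, 57088894 to 57095476, plus strand), the corepressor known as inducible, followed the same order. The 2 libraries gave 11.6 and 14.5 CPM at 0 h, 12.2 and 10.8 CPM at 0.5 h, 82.9 and 65.8 CPM at 1.5 h, and 246 and 187 CPM at 3 h. Levels were 103 and 102 CPM at 6 h, 75.6 and 81.8 CPM at 24 h, 86.1 and 86.4 CPM at 48 h, and 82.0 and 81.9 CPM at 72 h. The 0 and 0.5 h libraries overlapped, and the 6 libraries from 24 h on lay between 75.6 and 86.4 CPM.

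NAB2 differed by log2 -0.18 at 0.5 h, short of edgeR's threshold (adjusted p = 0.508). It was 5.71-fold higher at 1.5 h (log2 change 2.51, SE 0.15, adjusted p = 1.52e-07) and 16.6-fold higher at 3 h (log2 change 4.06, SE 0.16, adjusted p = 2.85e-10). It fell 2.12-fold from 3 to 6 h (adjusted p = 3.08e-05) and was 6.30-fold above 0 h at 72 h (adjusted p = 4.37e-09). The fall from 6 to 24 h was small, 1.30-fold (adjusted p = 0.0340). That call was lost when libraries were scaled to total counts (0.0962), with counts made from TPM (0.0816) and without 6 h replicate 1 (0.0973), 6 h replicate 2 (0.0873) or 24 h replicate 1 (0.163).

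STAT6 lies on the other strand and overlaps the NAB2 end by 69 bases (57095408 to 57095476). Whether counting used strand is not given in the sources used here, so reads in that overlap cannot be told apart. STAT6 held 56.7 and 65.3 CPM at 0 h and 58.5 and 51.4 CPM at 3 h, where NAB2 peaked. In edgeR the STAT6 difference at 3 h was log2 -0.15 (adjusted p = 0.220), and with libraries scaled to total counts it was -0.43 (adjusted p = 0.00104). STAT6 fell 1.67-fold at 6 h (adjusted p = 1.13e-05) and was 1.31-fold higher at 72 h (adjusted p = 0.00240), a call lost with protein-coding transcripts only (0.0636) and in a fit of the 2 time points (0.119).

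Over the steps between neighbouring times, the factors and the corepressors were called in opposite directions from 3 to 6 h only. From 0.5 to 1.5 h all 6 genes rose, where 5.77% of genes were called and 4.11% called higher. From 1.5 to 3 h, where 25.1% of genes were called and 13% called higher, EGR2, EGR3, NAB1 and NAB2 rose and EGR1 and EGR4 did not pass. From 3 to 6 h, EGR2 and EGR3 rose while NAB1 and NAB2 fell, with 41.2% of genes called, 19% higher and 22.1% lower. EGR1 (log2 0.29, adjusted p = 0.245) and EGR4 (0.09, adjusted p = 0.799) were not called over that step. From 6 to 24 h all 6 fell, among 56.6% of genes called and 25.8% called lower. From 24 to 48 h, 2 of 6 were called, beside 15% of all genes, 8.88% higher and 6.12% lower. From 48 to 72 h 0 of 6 were called in edgeR, beside 1.47% of all genes and 2098 genes at an unadjusted p under 0.05. DESeq2 called 1 of the 6 over that last step, EGR2.

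**Figure D2:**
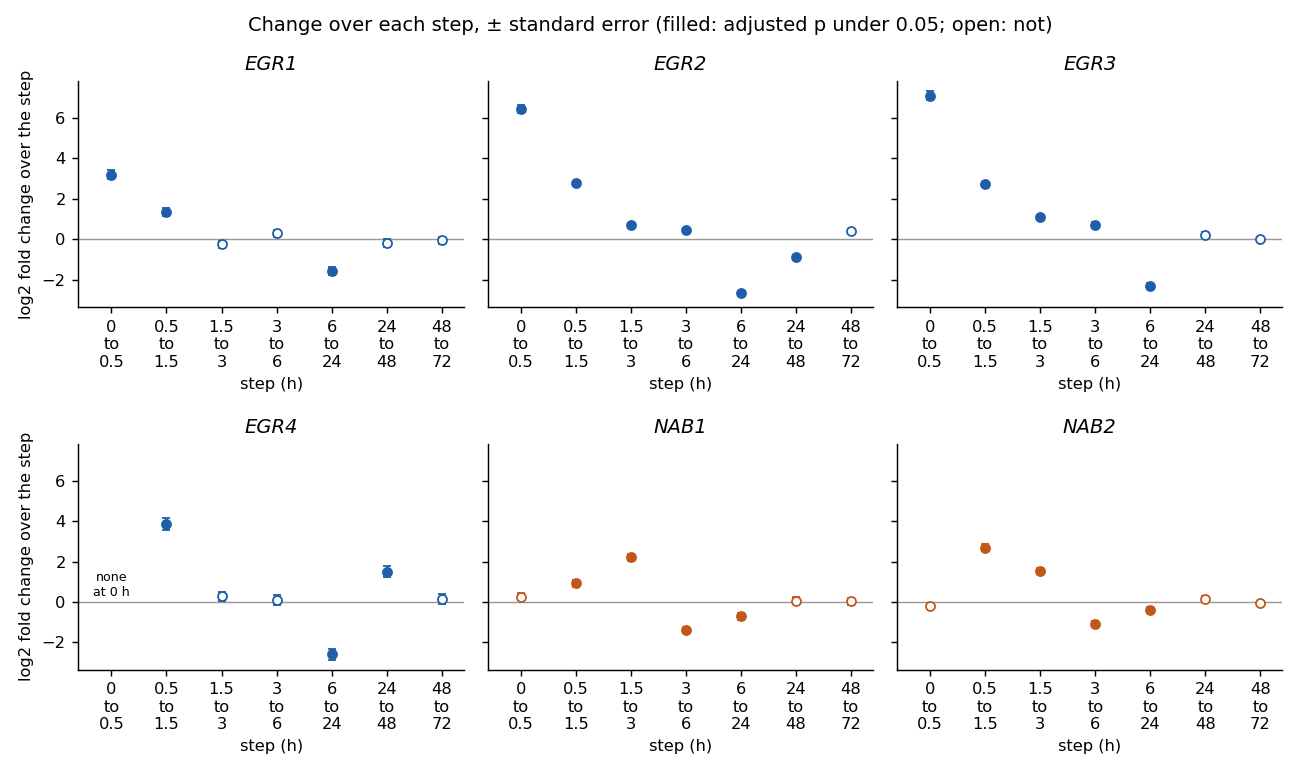
Log2 fold change of each gene over each step between neighbouring times (vertical axis), with the steps in h on the horizontal axis, bars for the standard error, and filled points for an adjusted p under 0.05. From 3 to 6 h EGR2 and EGR3 lie above 0 and NAB1 and NAB2 below it; EGR4 has no value for the step from 0 h because both 0 h libraries held 0 reads.

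Set directly against 1.5 h, the 72 h libraries were lower for EGR1 (log2 change -1.76, SE 0.19, edgeR adjusted p = 2.81e-06) and EGR2 (-1.92, SE 0.10, adjusted p = 2.26e-09). These were 2 of 6 members called, beside 57.2% of all genes called in this comparison and 26.2% called lower. EGR3 differed by -0.23 (adjusted p = 0.110) and EGR4 by -0.55 (adjusted p = 0.0665), and all their 72 h libraries were below all 1.5 h libraries. Libraries did not overlap in this comparison for 76.5% of all genes, so that separation sets neither gene apart. With the GC trend removed 4 members were called, EGR3 (adjusted p = 0.0384) and EGR4 (adjusted p = 0.0122) among them. The same 4 were called by edgeR with the replicate number as a block in the fit (EGR3 adjusted p = 0.0447, EGR4 0.0487). The count also depended on 72 h replicate 2: without it 5 members were called, with EGR3 at -0.37 (adjusted p = 0.0321), EGR4 at -0.99 (adjusted p = 0.00410) and NAB1 at 0.45 (adjusted p = 0.0336). NAB1 (0.21, adjusted p = 0.319) and NAB2 (0.14, adjusted p = 0.411) did not pass, and their 1.5 and 72 h libraries overlapped.

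Per length, EGR1 carried most of the EGR transcripts at every time. At 0 h EGR1 made up 99.8 and 99.7% of the summed EGR TPM. Its share was 92.8 and 93.7% at 1.5 h, was lower at 6 h (81.2 and 81.7%), and ended at 86.4 and 85.6% at 72 h. The share of EGR3 was 0.106 and 0.0873% at 0 h. It stood at 12.9 and 13.3% by 6 h and at 10.9 and 12.2% by 72 h. EGR2 reached 5.64 and 4.78% at 6 h, and EGR4 stayed under 1% in all libraries. The order by TPM at 6 h was thus EGR1 (1369 and 1408 TPM), EGR3 (218 and 229), EGR2 (95.1 and 82.4) and EGR4 (4.73 and 3.83), with no overlap between neighbours.

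The balance of EGR to NAB transcripts changed with the offset in their timing. Summed EGR TPM per summed NAB TPM was 2.25 and 3.18 at 0 h and 24.4 and 28.8 at 0.5 h. It was 15.9 and 18.1 at 1.5 h, dropped to 4.95 and 5.00 at 3 h, and was 14.1 and 16.7 at 6 h. From 24 to 72 h it was 4.90 to 7.04 in all 6 libraries. The ratio was thus lowest among treated libraries around 3 h and late in the course, and the 6 h libraries stood above both. NAB2 per NAB1 was 0.453 and 0.637 at 0 h. It was above 1 at 1.5 h (1.78 and 1.18), below 1 at 3 h (0.924 and 0.710), and between 1.28 and 1.53 from 24 h on. These ratios are described without a test.

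**Figure D3:**
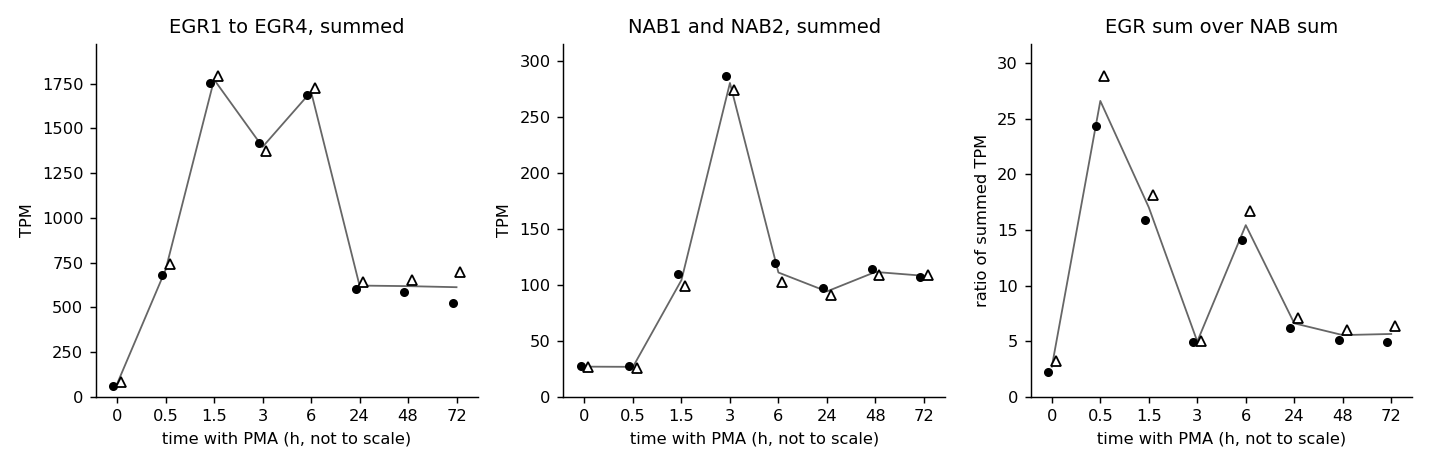
Summed TPM of the 4 EGR genes (left), summed TPM of NAB1 and NAB2 (middle) and their ratio (right) in every library against time with PMA in h (not to scale), with circles for replicate 1, triangles for replicate 2 and a line through the means. The ratio stands at 24.4 and 28.8 by 0.5 h, is low at 3 h (4.95 and 5.00), and is higher again by 6 h (14.1 and 16.7).

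Transcript shares within a gene are estimates of the quantifier and were not tested. All EGR4 reads were on transcript ENST00000545030.1, and EGR1 has 1 transcript in the annotation. EGR2 reads went mostly to ENST00000242480.3, with 68.7 and 84.3% of the gene's TPM at 6 h, and EGR3 reads to ENST00000317216.2, with 76.8 and 71.6%. In NAB2, the share of the coding transcript ENST00000342556.6 was largest at 3 h, with 42.6 and 39.8%, against 20.8 and 19.2% before it at 1.5 h and 26.1 and 25.8% after it at 6 h. A NAB2 transcript with a retained intron, ENST00000554839.1, held 0% of the TPM in both libraries at 0.5 h. By 1.5 h it held 26.0 and 28.5%, from 160 and 128 reads on this short transcript, and by 3 h 3.98 and 5.85%. Its highest share therefore came 1 time point before the NAB2 peak, and the libraries at 1.5 h did not overlap any others. In NAB1 the share of ENST00000426601.1 was 32.3 and 37.7% at 3 h and 15.7 to 25.9% elsewhere from 1.5 h on.

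**Figure D4:**
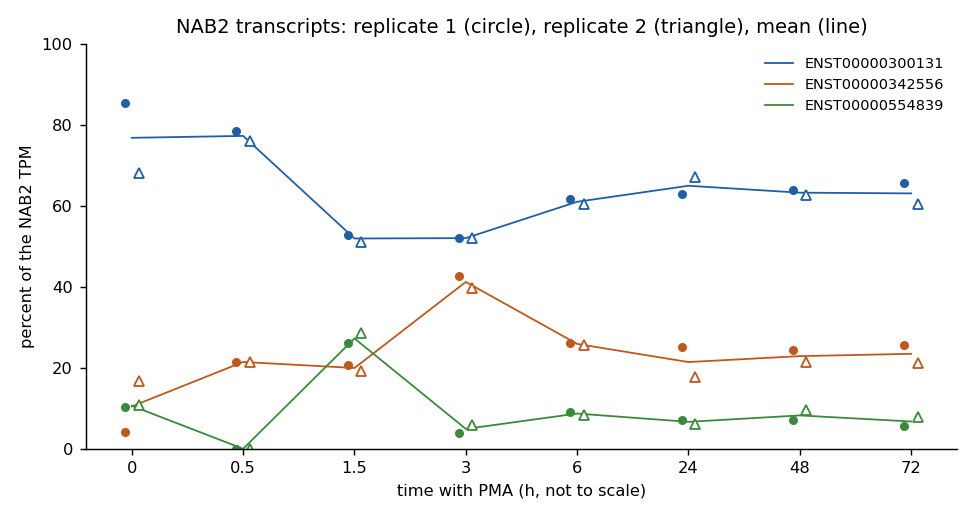
Share of the NAB2 TPM in percent (vertical axis) of 3 NAB2 transcripts in every library against time with PMA in h (not to scale), with circles for replicate 1, triangles for replicate 2 and lines through the means. The retained-intron transcript ENST00000554839 stands at 26.0 and 28.5% at 1.5 h, and the coding transcript ENST00000342556 at 42.6 and 39.8% at 3 h.

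Over the 8 time-point means of log2 CPM, the EGR courses were most alike for EGR1 and EGR2 (Pearson r = 0.976) and for EGR2 and EGR3 (0.971). NAB1 and NAB2 had r = 0.908. The 8 pairs of an EGR gene with a NAB gene ranged from 0.656 for EGR1 and NAB2 to 0.881 for EGR4 and NAB2, and the pairs of EGR genes from 0.879 for EGR1 and EGR4 to 0.976, so the ranges met. These correlations describe 8 points that share libraries and their order in time. Among 14256 other genes that averaged 1 CPM or more, those most like EGR1 were CD69 (0.991), IER2 (0.987) and CT45A8 (0.969). EGR2 was nearest to MOSMO (0.980), JUN (0.972) and NDUFA6 (0.969), and EGR3 to JUNB (0.980), ENSG00000285839 (0.973) and FOSB (0.968). EGR4 was nearest to JUN (0.981), ZNF557 (0.973) and FOSB (0.963). NAB1 was nearest to SLC20A2 (0.991), RNF19A (0.984) and EIF1AD (0.983), and NAB2 to NOTCH3 (0.986), RBM23 (0.984) and FAM83G (0.982). RNF19A went from 31.9 CPM at 0 h to 263 CPM at 3 h and 157 CPM at 6 h, while SLC20A2 moved only from 30.0 to 51.3 CPM, since r takes no account of size.

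The known inputs to EGR transcription were followed as a list of 13 RAF, MEK and ERK kinases, SRF and its partners. At 0.5 h 0 of 13 were called by edgeR, where 0.171% of all genes were called, a share at which 0 of 13 says nothing particular of the list. The median log2 change was -0.07 against -0.0025 over all genes, and 3907 genes had an unadjusted p under 0.05. DESeq2 also called 0 of the 13. At 1.5 h 2 were higher and 1 lower, beside 9.05% and 8.05% of all genes, with a median of -0.025 against -0.026 over all genes. Both counts at 1.5 h were 0 without 0 h replicate 2 or either 1.5 h library, and 4 were lower without 0 h replicate 1. At 6 h 9 were higher and 2 lower (median 0.39), beside 27.8% and 29.4% of all genes, and 1 was lower without 0 h replicate 2 or either 6 h library. At 72 h 6 were higher and 3 lower (median 0.26), beside 31.7% and 26.9% of all genes. The count of 3 lower was 1 without 72 h replicate 1 or 0 h replicate 2, and 0 in a fit of the 2 time points. Without 0 h replicate 1, which leaves the 0 h library that stood apart, the count at 0.5 h was 2 higher and 3 lower.

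ELK4, a partner of SRF, was the input with the largest called rise at 1.5 h, 1.32-fold (adjusted p = 0.0310), and MRTFA, an actin-regulated coactivator of SRF, the only called fall, 1.52-fold (adjusted p = 0.0264). Neither call held without 0 h replicate 2 (ELK4 log2 0.26, adjusted p = 0.286; MRTFA -0.49, adjusted p = 0.195), without either 1.5 h library, or with the GC trend removed. ELK4 also lost its call when scaled to total counts (adjusted p = 0.0764) and in 4 further alternatives. ELK3, another ETS factor that pairs with SRF, had 6.32 and 4.63 CPM at 0 h and 84.9 and 68.8 CPM at 72 h. It rose 3.25-fold at 6 h and 14.0-fold at 72 h (edgeR adjusted p = 3.38e-07 and 1.03e-10). MAPK3, which encodes ERK1, fell 1.84-fold at 6 h (adjusted p = 4.68e-05; 0.0541 with counts made from TPM), and MAP2K2, which encodes MEK2, fell 1.38-fold at 72 h (adjusted p = 0.0149; 0.201 without 0 h replicate 2).

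Of 20 genes known from textbooks as EGR targets, 1 was called higher at 0.5 h, the stress factor ATF3, and 0 lower, beside 0.165% of all genes called higher and 0.0057% called lower. The count of 1 was 3 without 0 h replicate 1 or with the GC trend removed, 2 in DESeq2 and 0 in a fit of the 2 time points. At 1.5 h 8 were higher and 1 lower, with a median log2 change of 0.72. The median was 0.66 with FASLG, which had 0 reads at 0 h, set against the floor of 3 reads. Of all genes, 9.05% were higher and 8.05% lower at that time. The targets had 14 genes higher and 3 lower at 6 h (median 1.41), where 27.8% of all genes were higher and 29.4% lower. The 72 h libraries had 14 higher and 4 lower (median 1.57), beside 31.7% and 26.9% of all genes. The medians over all genes were -0.026, 0.0011 and -0.032 at these times, and the list was chosen with results of these data known. Many of these genes have other regulators, and no binding was measured here.

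FASLG, the ligand of the death receptor FAS, had 0 reads in both 0 h libraries and 6.23 and 8.04 CPM at 6 h. Its mean level was 75.6 times the floor of 3 reads per 0 h library at 6 h (edgeR adjusted p = 3.86e-09 against 0 h). At 72 h it was 36.5 times that floor (adjusted p = 1.84e-08). FASLG passed the low-count filter only through treated libraries, so both results are descriptions.

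**Figure D5:**
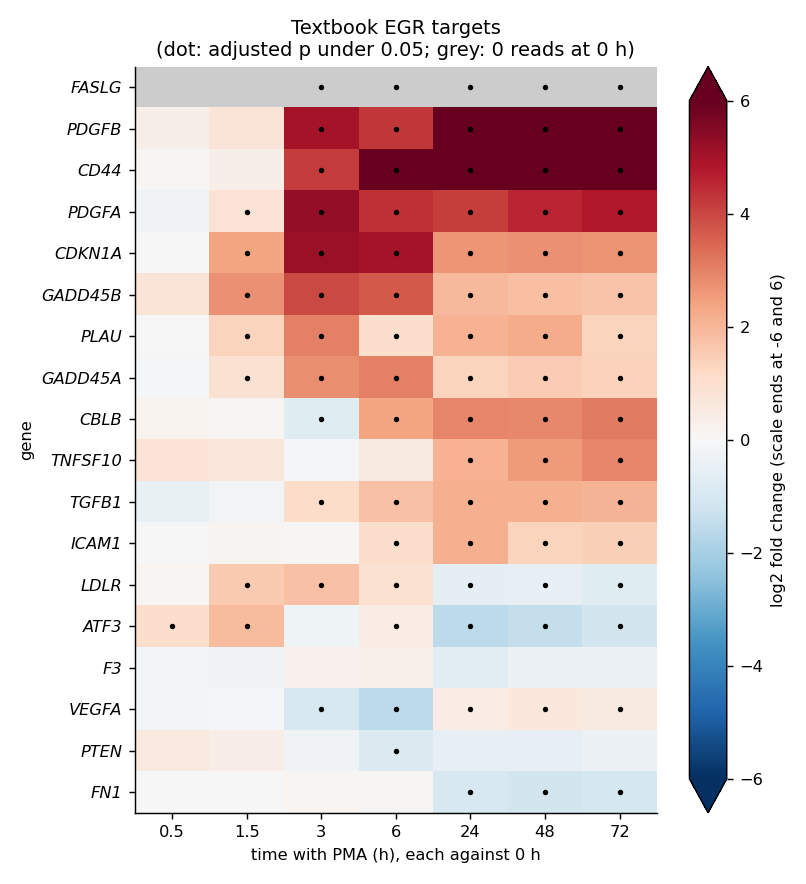
Log2 fold change against 0 h (colour) of 18 of the textbook EGR targets (rows) at each time with PMA in h (columns), with dots for an adjusted p under 0.05 and grey for FASLG, which had 0 reads at 0 h. At 0.5 h only ATF3 carries a dot; at 1.5 h 7 of the genes drawn do, all of them higher.

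Among the 5 related zinc finger factors and NAB partners (WT1, SP1, SP3, CHD3 and CHD4), 0 were called at 0.5 h by edgeR or DESeq2, beside 0.171% of all genes in edgeR, and 1 was called higher without 0 h replicate 1. WT1, which binds sites that overlap the EGR consensus, fell 1.47-fold at 1.5 h (adjusted p = 0.00549) and 2.22-fold at 6 h (adjusted p = 1.24e-06). Its levels were 37.3 and 35.7 CPM at 0 h and 15.7 and 17.1 CPM at 6 h, with no overlap. The call at 1.5 h was lost without 1.5 h replicate 2 (0.0711) and in a fit of the 2 time points (0.0525). CHD4, the remodeller bound by NAB2, was at 563 and 615 CPM at 0 h and 1345 and 1219 CPM at 72 h. CHD4 rose 1.98-fold at 6 h (adjusted p = 1.13e-06) and 2.18-fold at 72 h (adjusted p = 3.30e-07). CHD3, its close relative, fell 1.71-fold at 72 h (adjusted p = 6.37e-06). At 6 h the list had 3 genes higher and 1 lower, where 57.2% of all genes were called, and with libraries scaled to total counts 1 higher and 2 lower.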

How the data were processed

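Each deposited table lists 1 library. Per the file headers, it gives estimated counts of reads per transcript and TPM, the values the authors made. The submitters' processing notes name Trim Galore 0.4.3, Salmon, HISAT2 2.1.0, SAMtools 1.9, deepTools 3.0.1, R 3.3.1 and DESeq2, and the builds hg19 and hg38, with no role stated; the Salmon version, annotation and strand setting are not given in the sources used here. Transcripts were matched by identifier without version to GENCODE annotation of GRCh38 (167027 of 177456, 94.1%), and unmatched transcripts held 3.01 to 3.75% of reads. Estimated counts were summed per gene and rounded. TPM was summed per gene and not tested.

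All 16 libraries were fitted together in edgeR 4.0.16 (R 4.3.3) with TMM factors (0.854 to 1.139), filterByExpr, a prior count of 0.125 and the quasi-likelihood F-test (8 residual degrees of freedom), with Benjamini-Hochberg adjustment over 17559 genes in each of 14 contrasts. The common biological coefficient of variation was 0.123. A floor of 3 reads was 0.0623 to 0.128 CPM. Intervals are exact, 95%, and cover counting error only. An exact permutation test of 2 against 2 libraries cannot go below p = 0.333, so the tests use the spread pooled by the model. Counts were simulated for 72 h against 0 h with 17074 genes, 200 of them changed. The test then recovered 80% of 2-fold and 95% of 4-fold changes, with 5 false of 180 calls. In the data 58.6% of genes were called in that contrast, so these rates hold for the simulated setting only.

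The members, gene lists and markers were chosen with earlier results of these data known. Named genes are the 6 members, the called gene with the largest rise and fall of each list at 1.5, 6 and 72 h, STAT6, and the 3 genes most correlated with each member; some genes that the rule names are not reported here, and genes beyond it were named after their values were seen. The alternatives were other scalings, filters, counts from TPM, a GC correction, protein-coding transcripts, a replicate block, 2-time-point fits, a threshold of 0.01, DESeq2 1.42.0 and leaving out each library.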

Additional observations from a re-analysis of the deposited data

Results flagged for a closer look

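The levels of EGR1 and EGR2 differed between 1.5 h and 72 h with PMA by a direct test of the later against the earlier libraries. Time with PMA, age of the culture and the medium changes cannot be told apart in this comparison. EGR1 was at 3218 and 3632 CPM at 1.5 h and 875 and 1148 CPM at 72 h, a log2 change of -1.76 (edgeR adjusted p = 2.81e-06). EGR2 was at 75.5 and 81.1 CPM at 1.5 h and 19.5 and 21.96 CPM at 72 h, a log2 change of -1.92 (adjusted p = 2.26e-09). In this comparison 57.2% of all genes were called.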

How the results depend on the processing

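Single members gave 1217 values under the alternatives. Of these 1171 kept direction and side of the threshold, 12 lost a call, 15 gained one and 19 changed sign, none of the last being a call in the report. With a minimum of 10 counts in every library only EGR1, NAB1 and NAB2 could be tested. Members called were then 1 at 0.5 h and 3 at each later time against 0 h, 3 over the step that ends at 1.5 h, 2 over those ending at 3 and 6 h, 3 over that ending at 24 h, 0 over that ending at 48 h, and 1 for 72 against 1.5 h.

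Genes called at 0.5 h numbered 30, and 18 at an adjusted p under 0.01, 1538 with no low-count filter, 59 with the GC trend removed, 12 with only the 2 time points and 121 in DESeq2. Leaving out a library gave 20 to 3585, the highest without 0 h replicate 1. At 1.5 h 3003 genes were called, and 1160 at 0.01, 1969 with protein-coding transcripts, 1098 with 2 time points and 1006 to 5008 with a library left out (5008 and 1006 when 0 h replicates 1 and 2 were dropped, 1215 and 1061 when 1.5 h replicates 1 and 2 were). At 3 h 7370 were called, and 4823 with 2 time points. The cause was not tested, beyond the fewer genes or samples that some of these use. Scaling to total counts put the median of all genes at -0.12, -0.28, -0.35, -0.26, -0.18 and -0.19 for the times from 1.5 to 72 h. It took the share of calls that were higher from 52.9 to 31.9% (1.5 h), 51.2 to 27.4% (3 h), 48.6 to 30.3% (6 h), 54.4 to 38.7% (24 h) and 55.7 to 44.3% (48 h). Between neighbouring times the share went from 71.1 to 58.0% (to 1.5 h), 51.7 to 29.01% (to 3 h), 54.4 to 65.5% (to 24 h) and 59.2 to 72.9% (to 48 h). No member changed sign under it.

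From 48 to 72 h, 1 member (EGR2) was called when scaled to total counts, with no filter, with the GC trend removed and in DESeq2. At 72 h against 1.5 h, 4 members were called with the GC trend removed and 2 to 5 with a library left out. Differences that missed the threshold changed sign as follows. With the GC trend removed NAB2 was 0.19 at 0.5 h, and from 48 to 72 h EGR1 was 0.035, NAB1 -0.015 and NAB2 0.087. With counts from TPM, EGR3 was -0.029 and NAB1 -0.047 from 48 to 72 h, and NAB1 -0.025 and NAB2 -0.080 at 72 h against 1.5 h. With a library left out, EGR4 ranged from -0.0017 to 0.20 from 3 to 6 h and EGR1 from -0.33 to 0.00089 from 24 to 48 h. From 48 to 72 h the ranges were -0.26 to 0.13 for EGR1, -0.12 to 0.15 for EGR3, -0.28 to 0.51 for EGR4 and -0.27 to 0.27 for NAB1. At 72 h against 1.5 h they were -0.086 to 0.45 for NAB1 and -0.017 to 0.32 for NAB2.

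Replicate numbers were shared across times, and 24 of 28 pairs of times had deviations correlated over 0.1 (-0.30 to 0.60). Libraries with the same number thus mostly deviated together, and replicate 2 had the longer fragments at every time but 0 h. The main fit used the time point alone, and the block is given as an alternative. With the replicate number as a block, 1 member was called from 48 to 72 h (EGR2, 0.42, adjusted p = 0.0401) and 4 at 72 h against 1.5 h, adding EGR3 (-0.24, adjusted p = 0.0447) and EGR4 (-0.57, adjusted p = 0.0487). The block changed no other member's call.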
